A study of Mus musculus with 3 samples.

Results

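The mitosis genes are 40 genes whose products carry out or control cell division: cyclins and their kinase, the activators and targets of the anaphase-promoting complex, mitotic kinases, the chromosomal passenger complex, kinetochore and checkpoint proteins, spindle motors, cytokinesis factors and chromosome structure proteins. They were found by symbol, and all 40 were present among the 31053 genes of each matrix. In these droplet single-cell libraries each detected transcript is counted once by its molecular identifier (UMI). The study asked how metabolites of one-carbon metabolism bear on cell identity, and it holds 3 libraries of cultured mouse cells, 1 for each group.

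All libraries are labelled as C57BL/6 mouse cortex at E14.5, and their cells were fixed in methanol before capture. Neural stem cells grew as neurospheres, free-floating clusters, in medium without serum, with 20 ng/mL each of EGF and FGF2. Astrocytes grew in medium with 10% serum. The protocols describe a postnatal source and a source differentiated from neurospheres without saying which was used here, and a postnatal source would not match the E14.5 label. MIM-treated astrocytes were astrocyte cultures moved to medium without serum that held 20 ng/mL FGF2 and up to 6 metabolites (S-adenosylmethionine, putrescine and the amino acids glycine, cysteine, methionine and threonine). They were collected by day 5, and neither the combination used nor the day of this library is given. The treatment therefore changed metabolites, serum and growth factor together, and the effects of these cannot be told apart.

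A dividing cell builds its mitotic proteins in the G2 phase, after DNA replication, and destroys many of them at the end of mitosis. Their genes are switched on together late in the cell cycle. In resting cells the DREAM complex represses many of them through a promoter element called CHR, and the factor NF-Y acts at CCAAT boxes nearby. In the brain these transcripts mark dividing progenitors, while most mature astrocytes have left the cell cycle.

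Promoter sequence is shown first, since members that share a cell cycle phase are known to share these elements. RefSeq promoters on GRCm38.p6, from 250 bases before to 50 after a start, were matched to 35 members, which have 37 windows. Ccna2, Pbk, Aurkb, Tpx2 and Smc4 had no entry. The letters TTTGAA or TTCGAA (CHR) stood on either strand in 29 of 37 windows (78.4%), against 4199 of 23745 windows of all genes in the matrices (17.7%). CCAAT stood on either strand in 28 windows (75.7%), against 37.7% of all windows. Both occurred in 25 windows (67.6%), against 7.11%, and at least 2 CCAAT occurred in 19 (51.4%), against 12.2%. A match of letters is a description and not a bound site.

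The next 6 windows run from 130 bases before to 20 after the start, 5′ to 3′ on the gene's strand. Capitals mark CCAAT (reverse ATTGG) and CHR letters (reverse TTCAAA or TTCGAA). Ube2c (chr2:164769799-164769948, plus strand), Ccnb2 (chr9:70421535-70421684, minus) and Cdk1 (chr10:69352893-69353042, minus) hold several CCAAT and at least 1 CHR match. Prc1 (chr7:80294321-80294470, plus) holds 1 of each. Mki67 (chr7:135716360-135716509, minus) and Nuf2 (chr1:169531445-169531594, minus) are shown because they had opposite differences in level within dividing cells, described further on.
Ube2c: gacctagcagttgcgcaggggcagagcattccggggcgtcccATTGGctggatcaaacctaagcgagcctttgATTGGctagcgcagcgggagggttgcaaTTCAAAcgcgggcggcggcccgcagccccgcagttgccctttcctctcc
Ccnb2: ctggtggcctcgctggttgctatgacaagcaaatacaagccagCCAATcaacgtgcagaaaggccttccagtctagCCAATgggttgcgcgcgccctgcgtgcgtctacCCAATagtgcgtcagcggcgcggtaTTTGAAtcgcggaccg
Cdk1: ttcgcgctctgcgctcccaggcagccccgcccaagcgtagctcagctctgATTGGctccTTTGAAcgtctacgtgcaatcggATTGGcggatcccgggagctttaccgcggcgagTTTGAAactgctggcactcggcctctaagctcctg
Prc1: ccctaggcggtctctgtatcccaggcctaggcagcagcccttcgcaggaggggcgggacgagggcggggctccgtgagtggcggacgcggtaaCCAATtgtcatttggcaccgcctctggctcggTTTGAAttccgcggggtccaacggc
Mki67: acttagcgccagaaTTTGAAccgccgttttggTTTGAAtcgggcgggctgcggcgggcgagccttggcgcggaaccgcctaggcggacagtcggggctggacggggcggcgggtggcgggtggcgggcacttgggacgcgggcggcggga
Nuf2: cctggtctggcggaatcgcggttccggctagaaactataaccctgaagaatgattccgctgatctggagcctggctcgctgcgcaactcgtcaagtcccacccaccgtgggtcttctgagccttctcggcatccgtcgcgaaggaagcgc
Nuf2 held neither motif in its full window, and neither did Birc5, Nusap1, Pttg1 or Tacc3. The Mki67 window shown holds 2 CHR matches, and its 3 CCAAT matches lie upstream of the stretch shown.

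After filtering, 9145 cells were left in the neural stem cell library, 9818 in the astrocyte library and 14964 in the MIM-treated library, with median depths of 1379, 5089 and 3156 UMIs per cell. Total depths were 14689259, 50594420 and 50906724 UMIs. The nuclear transcript Malat1 took 26.9%, 13.7% and 9.44% of UMIs in that order. Between 25 and 43 cell barcodes were shared by each pair of libraries, and doublets were not removed. Astrocyte markers (9 genes, among them Gfap and Aqp4) summed to 667, 6141 and 1424 CPM (UMIs scaled to a common library total of 1000000), and neural stem cell markers (6 genes, among them Sox2 and Nes) to 4547, 2037 and 10436 CPM. Microglial markers summed to at most 0.356 CPM, and fibroblast and mural markers to 11.3, 295 and 5.13 CPM. With 1 library per group there is no replicate and no test. Intervals are exact, at 95%, and cover only counting error, so a gap between libraries could also be a gap between cultures of 1 group.

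Over whole libraries the mitosis genes were lowest in astrocytes and highest in MIM-treated astrocytes. They gave 19069 UMIs in the neural stem cell library, 5316 in the astrocyte library and 221196 after MIM. As a level this was 1298 CPM (interval 1280 to 1317), 105 CPM (102 to 108) and 4345 CPM (4327 to 4363). A gene is called higher or lower here when CPM plus 1 differed at least 2-fold between 2 libraries. In MIM-treated against untreated astrocytes 40 of 40 members were higher, where 8.49% of 13876 measured genes were higher and 15.2% lower. The members' median log2 ratio was 4.56, and that of all measured genes was -0.19. In astrocytes against neural stem cells 39 of 40 members were lower, where 22.6% of 13647 genes were lower and 19.9% higher. The member median was -3.15, and the median of all genes was -0.03. In MIM-treated astrocytes against neural stem cells 29 members were higher, none was lower and 11 were neither, where 9.29% of 13097 genes were higher and 20.5% lower. The member median was 1.41, against -0.24 for all genes. TMM scaling moved the all-gene median to 0.07 and gave 31 members higher, where 17.1% of all genes were higher. Totals without Malat1 moved it to -0.50 and gave 22, where 5.89% of all genes were higher, and no member was lower under either. Each library enters 2 of these 3 comparisons, so they are not independent.

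**Figure D1:**
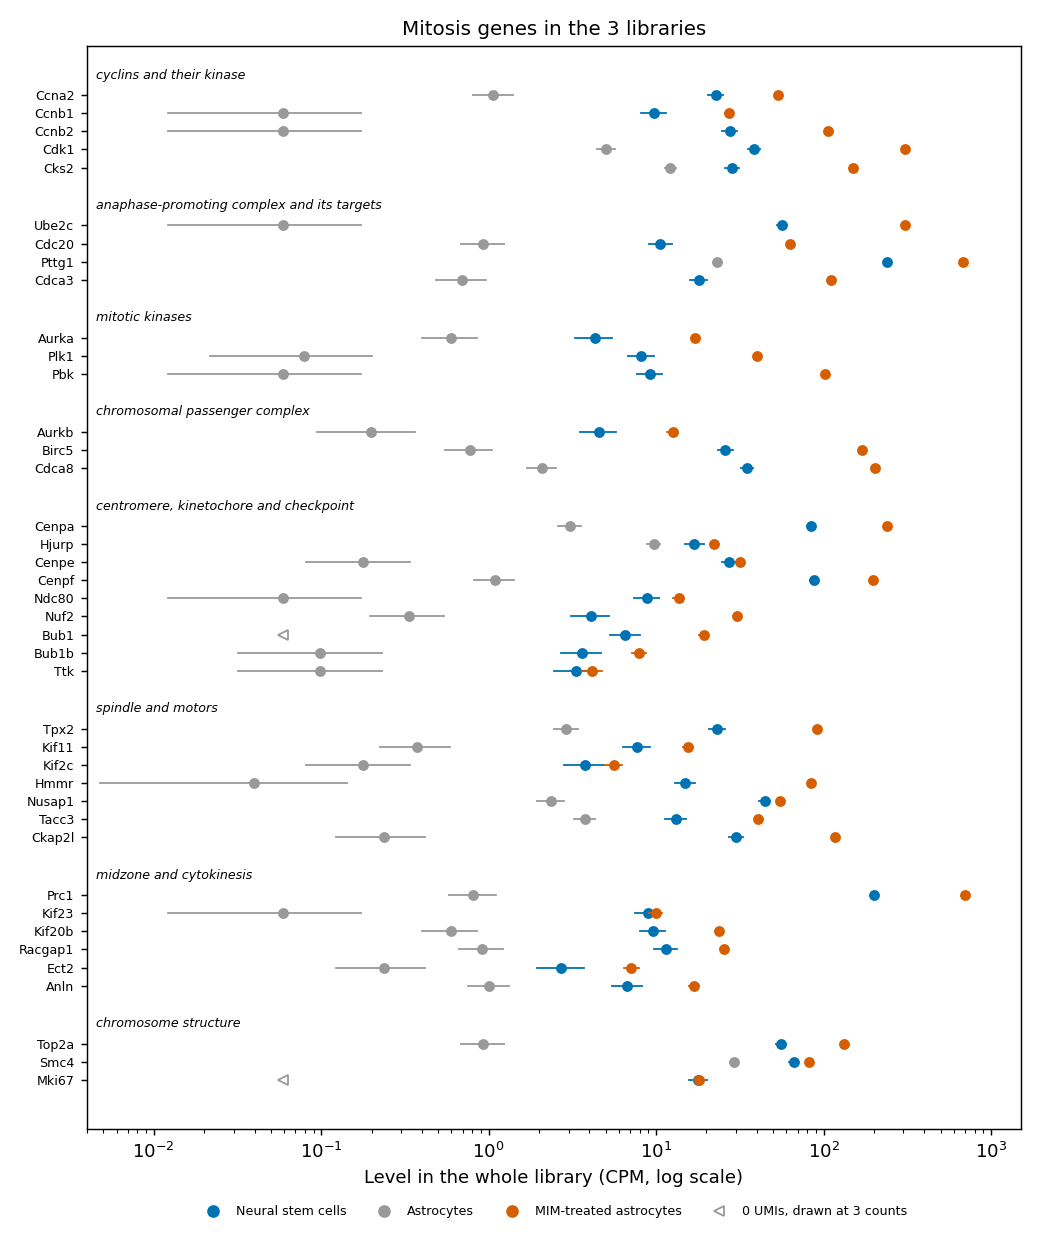
Level of each mitosis gene in each library (points, CPM on a log axis) with exact 95% counting intervals (lines), grouped by the role of the protein; a library with 0 UMIs is drawn at 3 counts as an open triangle. Every member lies highest in MIM-treated astrocytes, and Hjurp and Smc4 have the narrowest spread between libraries.

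Cyclins and their kinase open mitosis. Cdk1, the kinase that drives entry into mitosis, had 38.5 CPM in neural stem cells, 5.04 CPM in astrocytes and 307 CPM after MIM. That was 60.9-fold higher in MIM-treated than in untreated astrocytes, and 7.98-fold (7.34 to 8.69) higher than in neural stem cells. Its partners Ccnb1 and Ccnb2, the B-type cyclins, had 9.67 and 27.5 CPM in neural stem cells, 3 UMIs each (0.0593 CPM) in astrocytes, and 27.2 and 106 CPM after MIM. The ratio of MIM-treated to untreated astrocytes was 459 (157 to 2226) for Ccnb1, an interval made wide by the 3 UMIs. Ccna2, the cyclin of S phase and early mitosis, had 22.7, 1.07 and 53.7 CPM, listed as before. Cks2, a small subunit of cyclin-dependent kinases, had 28.5, 12.2 and 149 CPM. All 5 of these genes were higher after MIM than in neural stem cells, with Cdk1 standing furthest apart.

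The anaphase-promoting complex tags mitotic proteins for destruction, and 4 of the members work with it. Ube2c, the ubiquitin-conjugating enzyme that serves the complex, had 56.2 CPM in neural stem cells, 3 UMIs in astrocytes and 308 CPM after MIM. Cdc20, its activator in mid-mitosis, had 10.6, 0.929 and 62.6 CPM. Pttg1 (securin), a target whose removal lets sister chromatids part, had 241, 23.2 and 677 CPM. Cdca3, which has a part in mitotic entry and is itself a target, had 18.0, 0.692 and 111 CPM. Among these 4 the ratio of MIM-treated astrocytes to neural stem cells ran from 2.81 for Pttg1 to 6.17 for Cdca3.

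Among mitotic kinases, Pbk had the largest ratio of MIM-treated astrocytes to neural stem cells of the 40 members. It had 9.19 CPM in neural stem cells, 3 UMIs in astrocytes and 101 CPM after MIM, which puts the ratio between 9.31 and 13.2. Plk1, which acts in centrosome maturation and cytokinesis, had 8.17, 0.0791 and 40.1 CPM. Aurka, the centrosome kinase, had 4.29, 0.593 and 17.2 CPM. All 3 kinases were higher after MIM than in either other library.

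The chromosomal passenger complex corrects chromosome attachment. Its kinase Aurkb had 4.56, 0.198 and 12.6 CPM, and its subunits Birc5 (survivin) and Cdca8 (borealin) had 25.9, 0.771 and 170 CPM and 34.9, 2.08 and 204 CPM. Within the complex the ratio of MIM-treated astrocytes to neural stem cells was 2.75 (2.14 to 3.59) for Aurkb, 5.83 (5.34 to 6.39) for Cdca8 and 6.56 (5.92 to 7.29) for Birc5. The Aurkb interval lay below those of both partners.

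Of the 9 centromere, kinetochore and checkpoint genes, 4 were higher after MIM than in neural stem cells. Cenpa, the centromeric histone, had 83.9, 3.04 and 241 CPM, and Cenpf, a kinetochore protein of G2 and mitosis, had 87.2, 1.09 and 199 CPM. Nuf2, a subunit of the microtubule-binding NDC80 complex, had 4.08, 0.336 and 30.5 CPM, whereas its partner Ndc80 had 8.78, 0.0593 and 13.7 CPM. The ratio of MIM-treated astrocytes to neural stem cells was 7.46 (5.76 to 9.82) for Nuf2 and 1.56 (1.29 to 1.89) for Ndc80, so these partners differed in it beyond counting error. Among the checkpoint kinases, Bub1 had 6.54, 0 and 19.3 CPM, and Bub1b had 3.61, 0.0988 and 7.90 CPM. For Bub1 the 0 UMIs in astrocytes had an interval up to 0.0729 CPM. With astrocytes set at a floor of 3 counts, the ratio of MIM-treated to untreated astrocytes was 325. Ttk, the kinase that starts the checkpoint, had 3.34, 0.0988 and 4.13 CPM, and Cenpe, the kinetochore motor, had 27.4, 0.178 and 31.7 CPM. These last 2 were close between the dividing libraries and near 0 in astrocytes. Hjurp, the chaperone that loads Cenpa, had 17.0, 9.68 and 22.2 CPM, and it was the member not called lower in astrocytes than in neural stem cells (log2 ratio -0.75).

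Spindle genes shared the same order of libraries with unequal spacing. Tpx2, which activates Aurka on the spindle, had 23.1, 2.91 and 91.0 CPM, and Hmmr, a spindle pole protein, had 14.9, 0.0395 and 84.2 CPM. Ckap2l, a spindle protein of neural progenitors, had 30.0, 0.237 and 117 CPM, and Tacc3, a stabiliser of spindle fibres, had 13.1, 3.76 and 40.5 CPM. These 4 were called higher after MIM than in neural stem cells. The other 3 were not: the motor Kif11 had 7.69, 0.376 and 15.6 CPM, the depolymerase Kif2c had 3.74, 0.178 and 5.60 CPM, and Nusap1, which bundles microtubules, had 44.7, 2.35 and 55.3 CPM.

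Cytokinesis genes also followed that order. Prc1, which bundles the central spindle, had 200.1 CPM in neural stem cells, 0.810 CPM in astrocytes and 704 CPM after MIM. That was 869-fold (640.2 to 1211) higher in MIM-treated than in untreated astrocytes, on 41 UMIs in the latter. Racgap1 and Ect2, which switch on the contractile ring, had 11.4, 0.909 and 25.3 CPM and 2.72, 0.237 and 7.13 CPM. Anln, the ring's scaffold, had 6.74, 1.01 and 16.9 CPM, and Kif20b, a late motor, had 9.53, 0.593 and 23.7 CPM. Kif23, the motor partner of Racgap1, had 8.99, 0.0593 and 9.98 CPM, and it was the cytokinesis gene not called higher after MIM than in neural stem cells.

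Chromosome structure genes were the group closest between MIM-treated astrocytes and neural stem cells by median log2 ratio (0.30 over 3 genes). Mki67, the source of the Ki-67 proliferation marker, had 17.8 CPM in neural stem cells, no UMI in astrocytes and 18.1 CPM after MIM. Its ratio of MIM-treated astrocytes to neural stem cells was 1.01 (0.882 to 1.17). Smc4, a condensin core subunit, had 66.3, 29.0 and 81.6 CPM. Top2a, the topoisomerase that untangles chromosomes, had 56.0, 0.929 and 133 CPM. By Mki67 alone the dividing libraries stood level, while 29 other members were at least 2-fold higher after MIM.

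The astrocyte library did not lose all members alike. Smc4, Pttg1, Cks2, Hjurp and Cdk1 held 4004 of its 5316 member UMIs (75.3%). The other 35 members summed to 25.9 CPM there, against 907 CPM in neural stem cells and 3108 CPM after MIM. In that library 27 members lay under 1 CPM, 9 had 3 UMIs or fewer, and Bub1 and Mki67 had none.

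A level over a whole library joins the share of dividing cells with the RNA of each. To part them, cells were gated by 57 other genes of G2 and M phase, none of them a member, after thinning each cell to 1000 UMIs. A cell with at least 2 gate UMIs was taken as a G2/M-gated cell. Of 7688 neural stem cells the gate held 476 (6.19%, interval 5.66 to 6.75). Of 9467 astrocytes it held 31 (0.327%, 0.223 to 0.464), and of 13991 MIM-treated cells 3005 (21.5%, 20.8 to 22.2). Thinning left out 1457, 351 and 973 shallower cells. Without thinning, over all kept cells, the shares were 7.45%, 6.27% and 32.5%. The gate is a range and not a cell type: 137, 29 and 816 gated cells had exactly 2 gate UMIs, and 642, 668 and 1891 cells had 1.

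Gated cells expressed the members far more often than the others did in the dividing libraries. Of the 40 members, the median gated cell had UMIs from 7 in neural stem cells, 8 after MIM and 0 in the astrocyte library. At least 3 members were detected in 83.8% of gated neural stem cells and 90.0% of gated cells after MIM, against 1.77% and 10.3% of their ungated cells. In untreated astrocytes this held for 0 of 31 gated cells (exact binomial interval 0 to 11.2%) and 0.0212% of the ungated. Since 26 of the 31 gated astrocytes had no member UMI, members are not described per gated cell for that library.

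**Figure D2:**
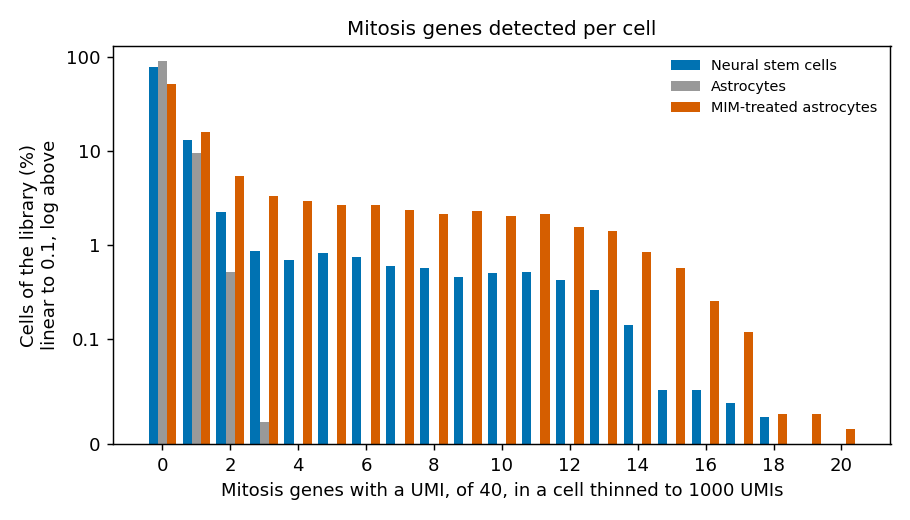
Percent of cells (vertical axis, linear to 0.1 and logarithmic above) by the number of the 40 mitosis genes with a UMI (horizontal axis). Each cell was thinned to 1000 UMIs, and gated and ungated cells of a library are drawn together. Most cells of each library have 0 members. The highest count is 18 in neural stem cells, 3 in untreated astrocytes and 20 after MIM.

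Single members showed the same contrast. Prc1 had a UMI in 66.4% of gated and 1.91% of ungated neural stem cells, and in 71.6% and 7.57% of MIM-treated astrocytes. In ungated astrocytes, where gated cells were few, its share was 0.0424%, at a median of 5160 UMIs per cell before thinning. Mki67 had a UMI in 14.9% of gated neural stem cells and 5.42% of gated MIM-treated astrocytes. For Pbk the order was the other way, with 6.30% and 23.2%. Ungated cells of the MIM-treated library had more member UMIs than ungated neural stem cells (1240 against 356 CPM), and these include cells with 1 gate UMI.

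At the main gate, MIM-treated astrocytes differed from neural stem cells more in the share of gated cells than in the summed member level within them. Over cells of at least 1000 UMIs the summed level was 1355 CPM in neural stem cells and 4374 CPM after MIM, a ratio of 3.23 (3.18 to 3.28). The gated share differed 3.47-fold. Within gated cells the members summed to 11619 and 13071 CPM, a ratio of 1.12 (1.11 to 1.14). Malat1 took 19.3% of UMIs in gated neural stem cells and 6.70% in gated cells after MIM. Totals without Malat1 would lower this ratio and were not run for it, so its direction should not be relied on. The thinned UMIs also include Malat1, which left fewer other UMIs per thinned neural stem cell for the gate. Gated cells held 76.0% of member UMIs in neural stem cells and 79.2% after MIM. They held 8.87% and 26.5% of all UMIs, and in ungated cells the members summed to 356 and 1240 CPM. The ratios of share and level therefore do not multiply to the total ratio. The split moved with the gate: at 1 gate UMI the share ratio was 2.41 and the ratio within gated cells 1.55. Other cells gave another total to split: among the 1615 neural stem cells and 11354 MIM-treated cells of at least 2000 UMIs, thinned to that depth, the total ratio was 1.81, the share ratio 1.56 and the ratio within gated cells 1.19. Without the 8% of cells with the most UMIs these were 4.21, 4.35 and 1.05.

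Within gated cells, with each member's UMIs scaled to all UMIs of those cells (CPM), the members were spread to both sides. Below, per gated cell refers to this level and not to UMIs per cell. Counted as UMIs per cell, Pttg1 had 5.18 in gated neural stem cells and 8.03 after MIM, and Mki67 had 0.391 and 0.241. By that count most members had more after MIM. Only Cenpe, Ndc80, Ttk, Kif2c, Nusap1, Kif23 and Mki67 had fewer. In CPM, 4 members were higher, 5 lower and 31 neither in MIM-treated astrocytes against neural stem cells. Of 10681 genes, with gate genes left out, 11.6% were higher and 19.2% lower. As shares of the 40 members, neither count exceeded that of all genes. The member median log2 ratio was -0.08, against -0.15 for all genes. For 15 members the counting interval of the ratio lay above 1, for 15 below 1, and for 10 it included 1. Every one of the 40 ratios was smaller within gated cells than over whole libraries. Gated cells were deeper after MIM (median 4357 against 2190 UMIs), and Malat1 took 6.70% of their UMIs against 19.3%. With totals without Malat1 the member median was -0.29 and that of all genes -0.34, with 3 members higher and 7 lower, where 8.62% of genes were higher and 25.5% lower. With cells thinned to 2000 UMIs the member median was -0.01, and without the 8% of cells with the most UMIs it was -0.10.

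**Figure D3:**
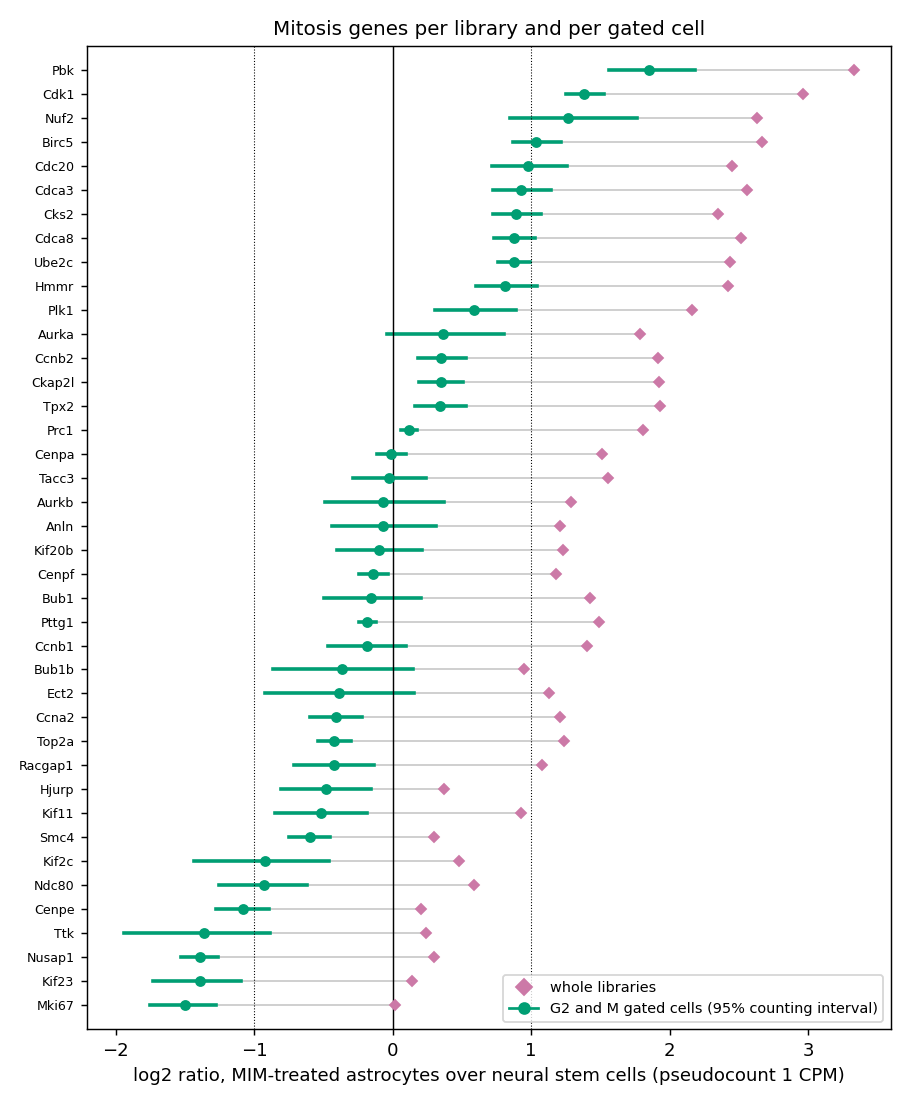
Log2 ratio of MIM-treated astrocytes over neural stem cells for each mitosis gene, over whole libraries and within G2/M-gated cells, with exact 95% counting intervals. The whole-library points lie to the right of the gated points for all 40 genes, and the gated points fall on both sides of 0, from Mki67 (-1.50) to Pbk (1.85).

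The 4 genes called higher per gated cell were Pbk, Cdk1, Nuf2 and Birc5. Pbk had 74.5 CPM in gated neural stem cells and 271 CPM in gated MIM-treated astrocytes, 3.64-fold (2.95 to 4.54) higher. Cdk1 had 369 and 964 CPM (2.61-fold, 2.37 to 2.88), and Nuf2 had 36.0 and 87.8 CPM (2.44-fold, 1.80 to 3.39). Birc5 had 242 and 497 CPM (2.06-fold, 1.83 to 2.32). These 4 belong to 4 different role groups. Pbk, Cdk1 and Nuf2 were called higher in all 9 settings of gate, depth and scaling that were run, and Birc5 was above 0 in all 9. With totals without Malat1 the log2 ratio of Birc5 was 0.83, under the 2-fold threshold, and at 3 gate UMIs it was 0.93.

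The 5 genes called lower per gated cell were Mki67, Kif23, Nusap1, Ttk and Cenpe. Mki67 had 156 CPM in gated neural stem cells and 54.5 CPM in gated MIM-treated astrocytes, 2.86-fold (2.42 to 3.36) lower. Nusap1 had 459 and 175 CPM (2.63-fold lower, 2.39 to 2.89), and Kif23 had 86.2 and 32.3 CPM (2.67-fold lower, 2.13 to 3.32). Ttk had 32.6 and 12.1 CPM on 39 and 161 UMIs (2.70-fold lower, 1.85 to 3.84), and Cenpe had 223 and 105 CPM (2.12-fold lower, 1.86 to 2.42). Mki67 was called lower in all 9 settings, and the other 4 were below 0 in all 9.

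By role, the anaphase-promoting complex and its targets had the highest gated median log2 ratio (0.90 over 4 genes). Within it Cdc20 (1.98-fold), Cdca3 (1.91-fold) and Ube2c (1.83-fold) were above 1 and Pttg1 (0.880-fold) was below. The passenger complex had a median of 0.88, with Cdca8 at 1.84-fold beside Birc5 and Aurkb at 0.952-fold (0.713 to 1.29). The kinases had 0.58, with Plk1 between 1.23- and 1.85-fold and Aurka at 1.29-fold (0.974 to 1.74) beside Pbk. Cyclins and their kinase had 0.35, with Cks2 at 1.86-fold, Ccnb2 at 1.28-fold, Ccnb1 at 0.876-fold (0.724 to 1.07) and Ccna2 at 0.751-fold.

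The spindle group lay near 0 (median -0.03), from Hmmr at 1.76-fold through Tpx2 and Ckap2l (each 1.27-fold) and Tacc3 (0.980-fold) to Kif11 (0.694-fold), Kif2c (0.514-fold) and Nusap1. Cytokinesis genes had a median of -0.24. Prc1 was at 1.09-fold, Anln at 0.951-fold, Kif20b at 0.934-fold, Ect2 at 0.756-fold and Racgap1 at 0.743-fold, beside Kif23. Kinetochore and checkpoint genes had -0.37: Cenpa was level at 0.994-fold (0.926 to 1.07), and Cenpf (0.907-fold), Bub1 (0.898-fold), Bub1b (0.769-fold), Hjurp (0.713-fold) and Ndc80 (0.520-fold) were below 1. The lowest median was that of chromosome structure (-0.60), where Top2a was at 0.746-fold and Smc4 at 0.659-fold beside Mki67. Nuf2 and its partner Ndc80 lay on opposite sides of 1, whereas Birc5 and Cdca8 of the passenger complex lay close together.

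The ratio per gated cell was lower for longer transcripts, among members and other genes. Over the 40 members Spearman's rho between this log2 ratio and the longest annotated transcript was -0.43, and over 10321 other protein-coding genes it was -0.42. The 20 shorter members (692 to 3421 bases) had a median log2 ratio of 0.35, with 11 above 0. The 20 longer members (3526 to 11130 bases) had a median of -0.38, with 5 above 0. Mki67, at 10061 bases, is among the longest. Over whole libraries rho was -0.45 for members and -0.47 for 12186 other genes in MIM-treated astrocytes against neural stem cells, and -0.07 and -0.34 in astrocytes against neural stem cells. These are correlations across genes of the same libraries, which are not independent replicates, and the part of length in the ratios of single members was not tested.

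**Figure D4:**
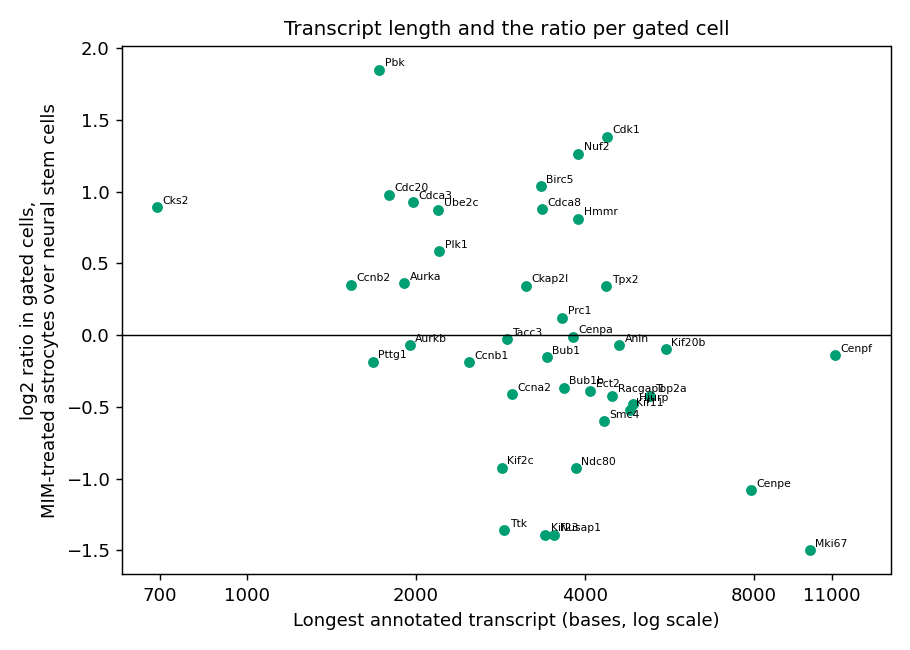
Log2 ratio of MIM-treated astrocytes over neural stem cells within G2/M-gated cells (vertical axis) against the longest annotated transcript in bases (horizontal axis, logarithmic), 1 point per mitosis gene. Shorter members lie higher on the whole, with Spearman's rho at -0.43 over 40 genes, and Nuf2 and Cdk1 lie high for their length.

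Gated cells were divided further by 48 genes of S phase, with at least 2 UMIs as the S gate. Both gates were passed by 190 neural stem cells and 1740 MIM-treated astrocytes, and the G2/M gate alone by 286 and 1265. Cenpa was higher in cells outside the S gate: in neural stem cells it had 903 CPM in G2/M-only cells and 435 CPM in cells of both gates, and after MIM 904 and 582 CPM. Pttg1 lay close to it, with ratios of 1.88 in neural stem cells and 1.55 after MIM, as did Ccnb2 in neural stem cells (1.91, 1.47 to 2.52) and Kif2c after MIM (1.61, 1.25 to 2.09). Aurkb had 25.4 and 67.7 CPM in neural stem cells and 33.0 and 45.5 CPM after MIM, higher in cells of both gates. Top2a was higher in them too, with 517 and 619 CPM and, after MIM, 369 and 448 CPM.

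Taking each member's log2 ratio of G2/M-only cells to cells of both gates, less the median member, 11 members stayed above 0 in both libraries under 3 gate settings. They were Ccnb2, Cdc20, Pttg1, Cdca3, Plk1, Cenpa, Cenpe, Cenpf, Tpx2, Hmmr and Tacc3. Below 0 throughout were 8 members, Cdk1, Aurkb, Birc5, Hjurp, Bub1, Top2a, Smc4 and Mki67, and 21 had mixed signs. Across the 40 members the ratios of the dividing libraries had a Spearman's rho of 0.55, and 0.72 and 0.52 under the other settings. The class with the highest level itself depended on the gate: 25 members peaked in G2/M-only cells after MIM, but 4 did with cells thinned to 2000 UMIs.

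**Figure D5:**
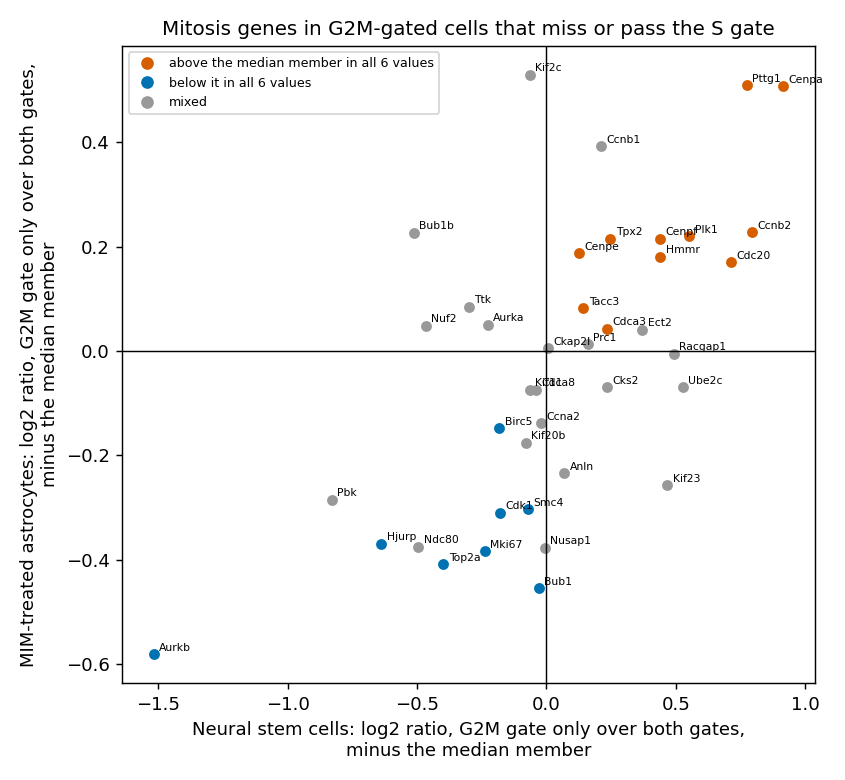
Log2 ratio of each mitosis gene's level in G2/M-gated cells outside the S gate over cells that pass both gates, less the median member, in neural stem cells (horizontal axis) and after MIM (vertical axis), coloured by sign over libraries and settings. Cenpa lies toward the upper right and Aurkb toward the lower left, and across the 40 genes Spearman's rho is 0.55.

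Other genes of the division pathway, in lists without the members, showed which neighbours shared the pattern. In MIM-treated against untreated astrocytes 8.49% of all genes were higher and 15.2% lower. In MIM-treated astrocytes against neural stem cells the shares were 9.29% and 20.5%. Of 33 further kinetochore and centromere genes, 23 were higher and none lower in MIM-treated than in untreated astrocytes, and 19 were higher than in neural stem cells. Cenpm, of the constitutive centromere, had 27.6, 4.51 and 152 CPM. Of 21 condensin and cohesin genes, 13 were higher in MIM-treated than in untreated astrocytes, and 4 were higher and 3 lower than in neural stem cells. Esco2, the cohesin acetyltransferase of S phase, had 10.2, 0.178 and 49.0 CPM, and Sgo1, a protector of cohesin, had 23.0, 0.138 and 23.7 CPM. Esco2 is also a gene of the G2/M gate, so it helped select the gated cells. Per gated cell 1 of the 33 kinetochore and centromere genes was lower after MIM and none higher (median log2 ratio 0.19). Of the 21 condensin and cohesin genes, 7 were lower per gated cell and none higher (median log2 ratio -0.61). Of all genes outside the gate 19.2% were lower and 11.6% higher in gated cells, whereas the 21 include Esco2.

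Of 16 genes of mitotic entry control, 11 were higher and 1 lower in MIM-treated than in untreated astrocytes. Fbxo5, which inhibits the anaphase-promoting complex before mitosis, had 9.87, 0.474 and 26.3 CPM, and the phosphatase Cdc25c had 3.61, 0 and 9.15 CPM. Per gated cell 5 of the 16 were lower after MIM, where 19.2% of all genes outside the gate were lower. Gate genes were left out of that share but not of this list. In the list of the anaphase-promoting complex, 1 of 16 genes was higher in MIM-treated than in untreated astrocytes, a share near that of all genes, with a median log2 ratio of 0.12. That gene was Anapc13, a small subunit, with 259, 102 and 256 CPM. Per gated cell none of these 16 genes was called higher or lower after MIM (median log2 ratio 0.07). Of all genes outside the gate 11.6% were higher and 19.2% lower. Over whole libraries, against neural stem cells, 2 of the 16 were higher after MIM, where 9.29% of all genes were higher. These were Ube2s, an enzyme that extends ubiquitin chains for the complex and is counted in this list, with 85.1, 145 and 279.8 CPM, and the subunit Anapc15, with 23.1, 32.2 and 48.7 CPM.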

How the data were processed

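UMI counts per gene and cell were deposited as 1 matrix for each library. Per the file headers and the labels' protocols they came from the authors' run of Cell Ranger 3.0.2 against the mm10 reference of 10x Genomics. Seurat 3.1.1 is named in the submitters' processing notes, without its role. How reads shared with pseudogenes were counted is not given in the sources used here.

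Cells with at least 200 genes and at most 20% mitochondrial UMIs were kept, and doublets were kept. Counts were summed per library and divided by the library total (CPM). Genes with at least 20 UMIs over a pair of libraries were measured, log2 ratios used a pseudocount of 1 CPM, and folds used none. For gates, cells of at least 1000 UMIs were thinned without replacement to 1000, while levels in gated cells used their full counts. Intervals are exact Poisson, binomial or conditional binomial at 95%. Transcript lengths and positions came from GENCODE vM21, in which 40 of 40 identifiers matched.

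The members and lists were chosen with earlier results of these data known. All members are named, and of each other list at most 3 genes. These had the largest absolute log2 ratio of MIM-treated over untreated astrocytes among genes of at least 100 UMIs. The relation with length and a gate on the other 39 members were chosen after seeing the data. Alternatives changed scaling (TMM from edgeR 4.0.16 in R 4.3.3), pseudocount, filters, depth, gate and the most deeply sequenced cells. The gene-level steps were tested on simulated data. Scripts ran on Python 3.11.15 with pandas 2.3.3, scipy 1.17.1, numpy 2.4.6 and matplotlib 3.10.9.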

Additional observations from a re-analysis of the deposited data

How the results depend on the processing

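No paired analysis was possible because each group has 1 library and the labels give no replicate numbers, and for the same reason no library could be left out of its group. No called direction reversed in the alternatives run. With a pseudocount of 10 CPM the member median log2 ratio was 2.17 for MIM-treated over untreated astrocytes. In that comparison 34 members were higher, where 3.89% of all genes were higher. The member median was -0.97 for astrocytes over neural stem cells, with 18 members lower, where 8.65% of all genes were lower. For MIM-treated astrocytes over neural stem cells it was 1.03, with 20 members higher, where 4.47% of all genes were higher. For this last comparison the member median was 1.79 under TMM scaling and 1.14 with totals without Malat1. The median of all genes moved with it. Without the 8% of cells with the most UMIs the member median was 1.85, and for astrocytes over neural stem cells -2.48. A filter of at least 50 CPM in either library left fewer members to measure. In MIM-treated against untreated astrocytes 20 of 20 were higher, where 14.7% of all genes were higher. Against neural stem cells 18 of 20 were higher after MIM, where 20.3% of all genes were higher. In astrocytes against neural stem cells 7 of 7 were lower, where 22.9% of all genes were lower.

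Within gated cells, a threshold of 1 gate UMI put the median at 0.32, and called 11 members higher and 1 lower, where 10.5% of all genes were higher and 20.9% lower. A gate on the other 39 members, set anew for each member, gave 8 higher and has no share over all genes. Thinning to 2000 UMIs gave 7 higher and 5 lower, where 11.1% of all genes were higher and 20.1% lower. At 1 gate UMI, at 3, and at 2 with cells thinned to 2000 UMIs, the gated share was 14.5%, 4.41% and 21.1% in the neural stem cell library, 7.38%, 0.0211% and 1.25% in untreated astrocytes, and 35.0%, 15.6% and 33.0% after MIM. Without the most deeply sequenced 8% it was 4.44% in neural stem cells and 19.3% after MIM. The members that peaked in cells of both gates numbered 6 in each library at 3 gate UMIs, and 21 in neural stem cells and 36 after MIM with cells thinned to 2000 UMIs, when 4 members after MIM peaked in G2/M-only cells. Neural stem cells were the shallowest library, so only 1615 of them could be thinned to 2000 UMIs, and the values at that depth describe the deepest of them.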

Other observations

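Genes of cell cycle arrest were called in both directions. Of 14 such genes, 2 were higher and 1 lower in MIM-treated than in untreated astrocytes, where 8.49% of all genes were higher and 15.2% lower. Cdkn2b, an inhibitor of the kinases of G1 phase, had 45.6 CPM in astrocytes and 15.9 CPM after MIM, with 177 UMIs in neural stem cells. Btg2, an antiproliferative gene, had 58.0, 7.39 and 16.9 CPM, highest in neural stem cells. Rbl1 (p107), a pocket protein of the DREAM complex, had 3.40, 0.751 and 4.09 CPM.

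Of 11 phosphatase genes linked to mitotic exit, 1 was higher and 1 lower in MIM-treated than in untreated astrocytes. The shares of all genes were 8.49% higher and 15.2% lower. Cdkn3, a phosphatase of cyclin-dependent kinases and also a gene of the G2/M gate, had 12.8, 0.217 and 43.0 CPM. That was the same order of libraries as for the mitosis genes. Ppp2ca, a catalytic subunit of phosphatase 2A, had 121, 409.6 and 185 CPM, highest in astrocytes. Of the 48 S phase genes, 40 were higher in MIM-treated than in untreated astrocytes, where 8.49% of all genes were higher. Among them Tk1, the thymidine kinase, had 5.11, 0.0988 and 68.4 CPM. Within G2/M-gated cells 6 of 47 measured S phase genes were higher after MIM than in neural stem cells and 3 lower. Their median log2 ratio was 0.19. Of all genes outside the G2/M gate 11.6% were higher and 19.2% lower.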
